A study of Mus musculus with 7 samples.

Results

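The Ras gene Nras and 7 genes that read out or restrain the MAP kinase pathway were followed across 7 Affymetrix mouse arrays of skin tumour cells. The 9 genes of the list were Hras, Nras, the dual specificity phosphatases Dusp4, Dusp5 and Dusp6, the Sprouty genes Spry2 and Spry4, and the ETS transcription factors Etv4 and Etv5. Of these, 8 had at least 1 probe set annotated to that gene symbol alone, 17 probe sets in all, among 18193 genes and 34945 such probe sets. Hras was not analysed here. All arrays came from cells sorted for the surface antigens Cd34 and Epcam out of mouse skin tumours raised with the carcinogen DMBA and the promoter TPA. Carcinomas, the malignant tumours, gave 4 arrays (1, 2, 3 and GFP) and papillomas, the benign tumours, gave 3 arrays (1, 2 and GFP). The labels put the name Nr2f2 before the tumour type in all 7 descriptions and give no genotype, strain, sex or age, and they do not explain the GFP tag or say whether arrays came from separate animals. The p-values therefore measure only the spread between these arrays, which may be technical, and so few arrays limit how precise any value is.

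Ras proteins are membrane switches that, when loaded with GTP, start the kinase chain from Raf through MEK to ERK. In this tumour model DMBA commonly starts papillomas by activating Hras through a point mutation, and TPA activates protein kinase C, which feeds the same chain, so the pathway is the driver the model is known for. Active ERK raises the transcription of its own restraints: Dusp4, Dusp5 and Dusp6 remove phosphate from MAP kinases, Spry2 and Spry4 act upstream on receptor and Ras signalling, and Etv4 and Etv5 are ETS factors that carry the output to other genes. The repressor Capicua holds several of these genes down until ERK signalling relieves it. The arrays read RNA levels, neither the mutation state of a Ras gene nor the activity of a kinase.

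The promoters of Dusp6, Spry2 and Nras are shown because Dusp6 was lower in the GFP arrays, Spry2 lay lower there on both of its probe sets and is a feedback gene of another family, and Nras serves as the Ras gene for contrast. Windows of 300 bases ran from 250 before the gene start to 50 from it on. RefSeq windows on GRCm38.p6 are reported here for 5 of the 8 measured genes: Nras, Dusp5, Dusp6, Spry2 and Etv5, the last with 2. The promoters of Dusp4, Spry4 and Etv4 are not reported here. The windows lie at chr10:99262981-99263280 on the plus strand for Dusp6, chr14:105896770-105897069 on the minus strand for Spry2 and chr3:103058035-103058334 on the plus strand for Nras. They are written 5′ to 3′ along the gene, with matches to the searched motifs in capitals.
Dusp6: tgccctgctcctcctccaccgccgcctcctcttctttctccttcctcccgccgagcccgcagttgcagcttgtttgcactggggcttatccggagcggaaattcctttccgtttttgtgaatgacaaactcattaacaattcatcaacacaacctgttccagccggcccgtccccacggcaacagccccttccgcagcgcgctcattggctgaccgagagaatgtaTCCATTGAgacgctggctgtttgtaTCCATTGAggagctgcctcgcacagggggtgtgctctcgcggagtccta
Spry2: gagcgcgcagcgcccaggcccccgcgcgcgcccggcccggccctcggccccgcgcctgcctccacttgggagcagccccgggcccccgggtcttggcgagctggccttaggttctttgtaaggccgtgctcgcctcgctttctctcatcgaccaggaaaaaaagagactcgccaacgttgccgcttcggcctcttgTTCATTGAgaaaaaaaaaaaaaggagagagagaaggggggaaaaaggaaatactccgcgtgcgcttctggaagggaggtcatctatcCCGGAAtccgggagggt
Nras: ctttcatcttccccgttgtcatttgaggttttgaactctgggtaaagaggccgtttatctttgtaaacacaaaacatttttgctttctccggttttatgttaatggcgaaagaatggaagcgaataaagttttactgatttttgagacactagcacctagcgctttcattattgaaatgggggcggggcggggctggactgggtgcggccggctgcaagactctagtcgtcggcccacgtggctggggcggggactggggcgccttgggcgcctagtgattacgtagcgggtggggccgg
The motifs, searched on both strands, were the Capicua octamer TNAATGNA, the ETS core CCGGAA and the AP-1 site TGANTCA, and no match overlapped another. Dusp6 held 2 Capicua matches, both TCAATGGA on the reverse strand, 1 starting 24 bases before the gene start and 1 just after it. Spry2 held 1 Capicua match, TCAATGAA on the reverse strand, starting 54 bases before the gene start, and 1 ETS core downstream of the gene start. The windows of Nras, Dusp5 and Etv5 held 0 matches to any of the 3 motifs. Among all 32851 windows of this length, 11.7% held the Capicua octamer, 14.9% the ETS core and 7.81% the AP-1 site. The matches describe letters in these windows, and no binding was measured here.

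Before the comparisons, the arrays themselves divided by the tag. The summed level of 14 endothelial markers, the log2 of their added linear values, was 14.92 and 14.96 in the GFP arrays and 9.48 to 10.12 in the others, and all 14 genes passed the test for a higher level in the GFP arrays. For 13 fibroblast markers the sums were 15.44 and 16.34 against 10.21 to 12.23 (12 of 13 higher), for 11 immune markers 10.97 and 11.32 against 8.85 to 10.01 (6 of 11 higher), and for 7 muscle and pericyte markers 12.94 and 13.50 against 9.33 to 11.43 (4 of 7 higher). Of 7 melanocyte markers 2 were higher, with sums of 9.32 and 9.36 against 8.26 to 9.30. In the other direction, epithelial markers summed to 12.46 and 12.64 against 13.53 to 14.37 (7 of 9 lower). Basal keratinocyte markers summed to 14.55 and 14.60 against 15.00 to 15.68 (4 of 9 lower). Over all genes the same test called 11.9% higher and 7.93% lower in the GFP arrays. Epcam, an antigen of the sort, had means of 8.94 with the tag and 11.39 without it, and Cd34 11.69 and 9.89. Krt5, a keratin of basal keratinocytes, was bright on every array, at 12.95 and 13.35 on average. The 3' minus 5' control probe sets of Gapdh, a difference that grows as labelled RNA shortens, gave 3.19 on both GFP arrays and -0.04 to 0.06 on the others. Array medians lay between 5.38 and 5.51.

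Across the tumour types the measured genes showed no difference that passed the test. The carcinoma mean was higher for 6 genes (5 without the GFP arrays) and lower for 2, beside 46.9% of all genes with a higher carcinoma mean. Limma called 0 of 8 genes at an adjusted p of 0.05, beside 0% of all 18193 genes. At an unadjusted p under 0.05 it gave 0 of 8, and 112 of all genes (0.616%). This fit left the tag out, so the tag difference within each type adds to its SEs and it can miss differences. Each type holds a single GFP array, among 4 carcinoma and 3 papilloma arrays, so leaving the tag out also shifts the differences themselves. Once the tag was fitted too, Spry4 moved from -0.29 to -0.008, Dusp6 from 0.21 to 0.008 and Nras from 0.11 to 0.12. With the tag as a covariate, and with both GFP arrays left out, limma also called 0 of the 8 and 0 of all genes. The groups did not overlap for 0 of the 8 genes, beside 1.42% of all genes. The median difference of the 8 genes was 0.16 log2 units, against -0.02 for all genes. Values below are log2 levels of the brightest probe set of each gene, and carcinoma is compared with papilloma.

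Nras, the Ras gene measured here, had the narrowest spread of the 8 genes on its brightest probe set. Its level was 9.86, 10.22, 9.49 and 9.93 in carcinoma 1, 2, 3 and GFP, and 10.23, 9.22 and 9.85 in papilloma 1, 2 and GFP. Papilloma 1 and carcinoma 2 were the high arrays, papilloma 2 was the low one, and the tumour types overlapped. Carcinoma exceeded papilloma by 0.11 (SE 0.29, limma adjusted p = 1), with means of 9.88 ± 0.30 (SD, n = 4) and 9.77 ± 0.51 (SD, n = 3). The probe sets 1422687_at and 1422688_a_at differed by 0.34 (SE 0.25) and 0.22 (SE 0.30).

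Among the phosphatases, Dusp4 had the widest gap between the tumour types and the widest spread. Its level was 9.52, 8.54, 8.23 and 7.35 in carcinoma 1, 2, 3 and GFP, and 9.06, 5.57 and 6.82 in papilloma 1, 2 and GFP. Papilloma 2 lay far below every other array, while papilloma 1 lay above 3 of the 4 carcinomas. With means of 8.41 ± 0.90 (SD, n = 4) and 7.15 ± 1.77 (SD, n = 3), carcinoma exceeded papilloma by 1.26 (SE 0.86, limma adjusted p = 1). The exact two-sided permutation p was 0.286, where 4 against 3 arrays can give no less than 0.0571. Without papilloma 2 the difference was 0.47, and without papilloma 1 it was 2.22 (limma adjusted p = 1 and 0.9998).

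Dusp5, which acts on ERK in the nucleus, lay at 10.36, 9.33, 8.92 and 7.54 in carcinoma 1, 2, 3 and GFP, and at 9.59, 8.82 and 8.86 in papilloma 1, 2 and GFP. Carcinomas held both the highest and the lowest array. The difference was -0.06 (SE 0.63, limma adjusted p = 1), or 0.33 with the GFP arrays left out and -1.32 within the GFP pair. Dusp6, the cytoplasmic ERK phosphatase, lay at 12.85, 11.85, 12.31 and 9.97 in carcinoma 1, 2, 3 and GFP, and at 12.30, 12.38 and 9.93 in papilloma 1, 2 and GFP. Apart from the GFP arrays its level stayed between 11.85 and 12.85, and the tumour types overlapped. The tumour types differed by 0.21 (SE 0.86, limma adjusted p = 1) with all arrays, by -0.0055 without the GFP arrays and by 0.041 within the GFP pair.

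Spry2, an inhibitor of receptor signalling to Ras, lay at 10.35, 9.46, 11.12 and 8.27 in carcinoma 1, 2, 3 and GFP, and at 9.74, 9.73 and 8.82 in papilloma 1, 2 and GFP. Carcinoma 3 was the highest array and carcinoma GFP the lowest, so the carcinomas spanned the papillomas. The difference was 0.37 (SE 0.67, limma adjusted p = 1), and without carcinoma 3 it was -0.07. Spry4, its relative, lay at 5.36, 4.62, 5.41 and 8.26 in carcinoma 1, 2, 3 and GFP, and at 4.62, 5.39 and 8.59 in papilloma 1, 2 and GFP. The difference was -0.29 (SE 1.19, limma adjusted p = 1), and 0.12 once the GFP arrays were left out.

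Between the tumour types the ETS factors differed by less than the SE, which here includes the tag difference. Etv4 lay at 8.25, 8.74, 8.58 and 6.44 in carcinoma 1, 2, 3 and GFP, and at 9.05, 8.31 and 6.52 in papilloma 1, 2 and GFP, a difference of 0.04 (SE 0.77, limma adjusted p = 1). Etv5 lay at 9.46, 8.73, 9.09 and 7.37 in carcinoma 1, 2, 3 and GFP, and at 9.20, 9.32 and 6.68 in papilloma 1, 2 and GFP, a difference of 0.26 (SE 0.78, limma adjusted p = 1). In both genes the low arrays were those with the tag, 1 of each tumour type, and the types overlapped. Without the GFP arrays the differences were -0.16 for Etv4 and -0.17 for Etv5, so their direction turned, and with the arrays centred on the upper quartile Etv4 was at -0.031.

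**Figure D1:**
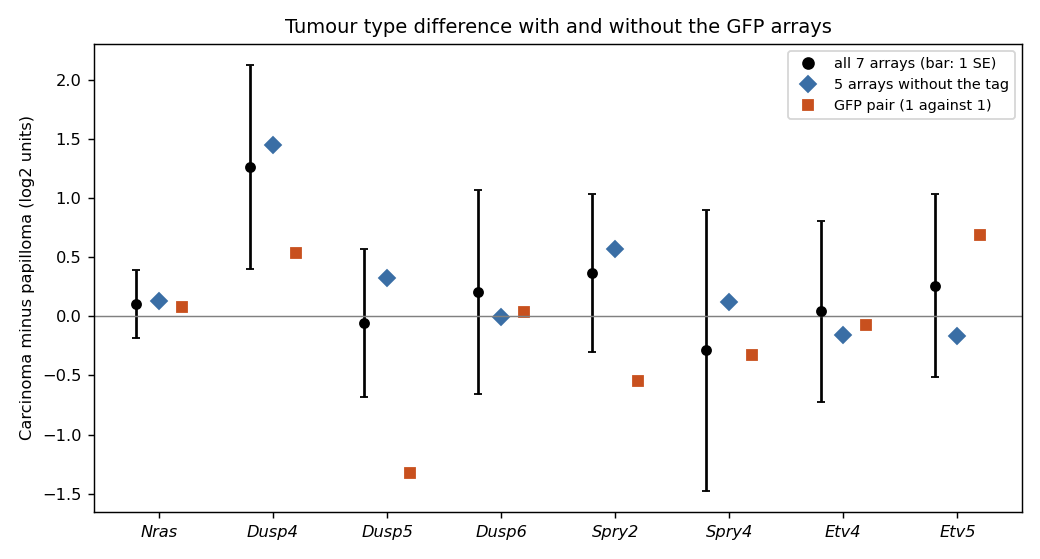
Carcinoma minus papilloma in log2 units for the 8 measured genes, from all 7 arrays (circles, bar 1 SE), from the 5 arrays without the tag (diamonds) and within the GFP pair (squares, 1 array against 1). The circles lie between -0.29 and 1.26, and Dusp4 has the highest circle, 1.26 with an SE of 0.86.

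With the tumour type as a covariate, the tag separated these genes into 3 sets. Dusp6, Etv4 and Etv5 were lower in the GFP arrays, Spry4 was higher, and Nras, Dusp4, Dusp5 and Spry2 did not pass the test on their brightest probe sets. Limma called 4 of the 8 genes, beside 19.8% of all 18193 genes: 3 were lower, beside 7.93%, and 1 was higher, beside 11.9%. Both GFP arrays lay below all 5 others for 4 genes, beside 19.9% of all genes, and above them for 1 gene, beside 21% of all genes. The median tag difference of the 8 genes was -1.37 log2 units, against -0.05 for all genes, and the median size was 1.82 against 0.39. Because the cells were measured in bulk, fewer cells of a type and less RNA per cell cannot be told apart, and the part of the endothelial, fibroblast and immune markers and of the Gapdh 3' to 5' difference in these results was not tested.

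**Figure D2:**
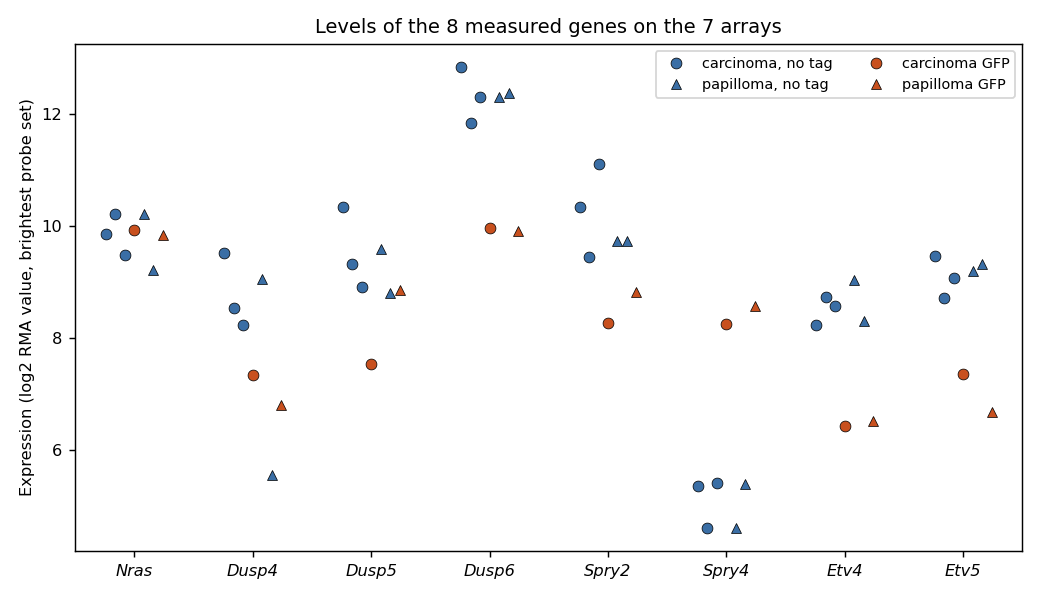
Log2 levels on the brightest probe set of each of the 8 measured genes, with 1 point per array (circles carcinoma, triangles papilloma, orange GFP, blue no tag). For Dusp6 the GFP arrays sit at 9.97 and 9.93 against 11.85 to 12.85, and for Spry4 they sit at 8.26 and 8.59 against 4.62 to 5.41. Levels of different genes come from different probes and cannot be compared with each other.

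Dusp6 was 5.24-fold lower in the GFP arrays. Its mean was 9.95 ± 0.03 (SD, n = 2) there and 12.34 ± 0.35 (SD, n = 5) in the others, and the fitted tag difference was -2.39 (SE 0.27, limma adjusted p = 0.00172). The exact two-sided permutation p was 0.0952, the smallest that 2 against 5 arrays allow, and it was the same for Spry2, Spry4, Etv4 and Etv5. The highest GFP array lay 1.88 below the lowest of the others, more than the whole range of the untagged arrays. Of all genes, 0.544% had a tag difference this low or lower. The drop was -2.37 within carcinoma and -2.42 within papilloma. The 9 epithelial markers had a median tag difference of -1.67, from -2.40 (SE 0.47) for Epcam to -0.10 (SE 0.96) for the keratin Krt8.

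Etv4 was 4.34-fold lower, at -2.12 (SE 0.25, limma adjusted p = 0.00203), with means of 6.48 ± 0.05 (SD, n = 2) and 8.59 ± 0.33 (SD, n = 5). Etv5 was 4.37-fold lower, at -2.13 (SE 0.28, limma adjusted p = 0.00304), with means of 7.02 ± 0.49 (SD, n = 2) and 9.16 ± 0.28 (SD, n = 5). In both genes each GFP array lay more than 1 log2 unit below every untagged array. The 9 basal keratinocyte markers had a median tag difference of -1.27, from -3.13 (SE 0.27) for Cdh3 to -0.37 (SE 0.23) for Itga6. Among them, Krt5 and Krt14 differed by -0.40 (SE 0.24) and -0.98 (SE 0.25), and the difference between genes was not tested. Within papilloma alone, where 1 array stands against 2, Dusp6, Etv4 and Etv5 had limma adjusted p = 0.0965, 0.171 and 0.0858, and within carcinoma alone, 1 array against 3, adjusted p = 0.0398, 0.0217 and 0.0521. These fits within a tumour type were chosen after seeing the data.

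Spry4 moved the other way. It was higher in the GFP arrays by 3.34 log2 units (SE 0.32, limma adjusted p = 0.000821), with means of 8.42 ± 0.23 (SD, n = 2) and 5.08 ± 0.42 (SD, n = 5). The untagged levels, 4.62 to 5.41, lay below the median of their arrays and are not shown to be above background, so no fold is given. With all 4 of its probe sets averaged the difference was 1.84 (limma adjusted p = 0.000402). The lower GFP array lay 2.85 above the highest untagged array, and 1.95% of all genes had a tag difference this high or higher. Within carcinoma and within papilloma the difference was 3.13 and 3.58 (limma adjusted p = 0.0162 and 0.0692). The endothelial markers Kdr, a receptor for vascular growth factors, and Cdh5, the junction cadherin of endothelium, differed by 6.08 and 6.25 on the same arrays.

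Spry2 was lower in the GFP arrays without passing the test on its brightest probe set, with means of 8.55 ± 0.39 (SD, n = 2) and 10.08 ± 0.67 (SD, n = 5) and a difference of -1.51 (SE 0.46, limma adjusted p = 0.0649). Its other probe set, 1421656_at, passed in the fit over all probe sets, at -1.30 (SE 0.24, limma adjusted p = 0.0154). Both GFP arrays lay below all others on either probe set. The call of Spry2 turned on the setting, with adjusted p between 0.0108 and 0.544 over the alternatives, the highest without carcinoma GFP. Without that array the difference was -0.92, and without papilloma GFP it was -2.04 (limma adjusted p = 0.118).

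Dusp5 differed by -1.22 (SE 0.52, limma adjusted p = 0.16), carried by carcinoma GFP at 7.54, whereas papilloma GFP, 8.86, lay just above papilloma 2, 8.82. Without carcinoma GFP the difference was -0.35. Dusp4 differed by -0.98 (SE 0.89, limma adjusted p = 0.502), since papilloma 2 was lower than both GFP arrays. The difference rested on single arrays: it was -0.35 without papilloma 1 and -0.50 without carcinoma GFP (limma adjusted p = 0.756 and 0.897), and -1.75 without papilloma 2, where it passed the test (limma adjusted p = 0.035). Nras differed by 0.10 (SE 0.32, limma adjusted p = 0.871), with means of 9.89 ± 0.06 (SD, n = 2) and 9.81 ± 0.44 (SD, n = 5).

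Every probe set of the measured genes was also fitted, with adjustment over all 34945 probe sets. Of the 17 probe sets, 5 were lower and 3 higher in the GFP arrays, beside 6.85% and 9.15% of all probe sets, and 0 differed by tumour type, beside 0%. Spry4 was higher on 3 of its 4 probe sets, by 3.34, 2.30 and 1.75, while 1422020_at, at 4.51 to 5.13 on all arrays, differed by -0.02. Etv5 was lower on 1428142_at and 1450082_s_at, by -2.13 and -2.21, and differed by -0.69 (limma adjusted p = 0.0795) on the dim 1420998_at, with 4.36 to 5.50. The second Etv4 probe set, 1443381_at, at 4.04 to 5.05, differed by -0.25 (limma adjusted p = 0.642). The Nras probe sets disagreed in direction: 1422688_a_at gave -0.72 (limma adjusted p = 0.0509) and 1422687_at -0.49 (0.183), against 0.10 on the brightest. With all 3 Nras probe sets averaged the difference was -0.37 (adjusted p = 0.266).

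**Figure D3:**
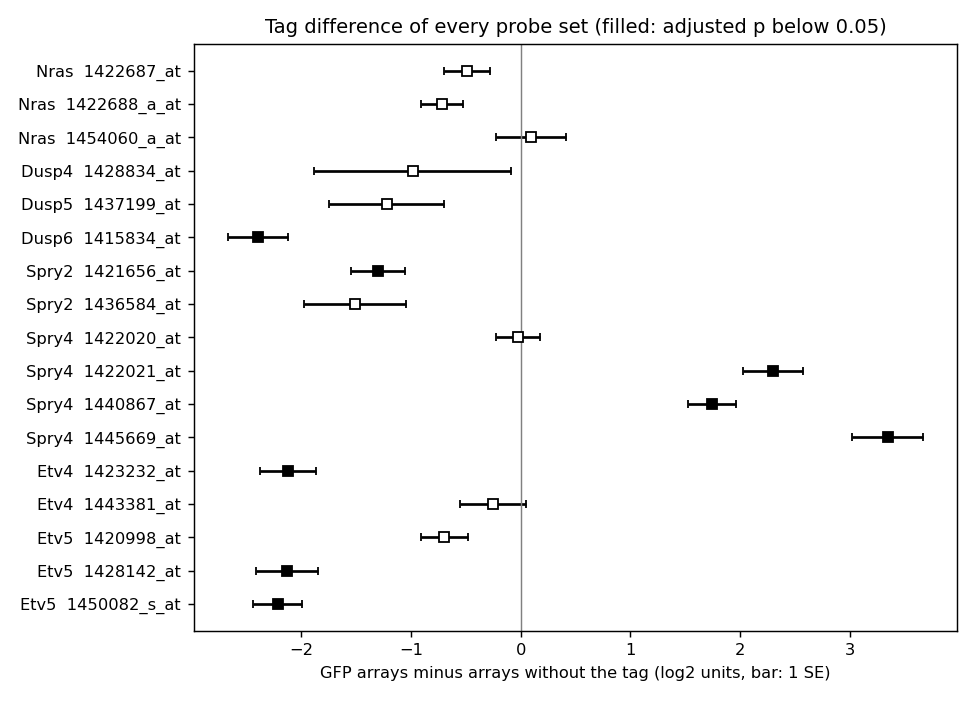
GFP arrays minus untagged arrays in log2 units for all 17 probe sets, from the fit over all probe sets with the tumour type as a covariate (bar 1 SE, filled where the adjusted p was below 0.05). The probe sets that passed lie at 1.75 and above for Spry4 and at -1.30 and below for Dusp6, Spry2, Etv4 and Etv5.

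Whether the tumour type difference itself changed with the tag was asked by an interaction term, where the tagged side has 1 array of each type. Limma called 0 of 8 genes and 0% of all genes (at an unadjusted p under 0.05, 0 of 8 and 389 of 18193, or 2.14%). Dusp5 and Spry2 were the genes whose difference was more than 1 log2 unit lower in the GFP pair than in the other arrays, with interaction terms of -1.65 (SE 0.90) and -1.12 (SE 0.89), both with limma adjusted p = 0.9998. For Dusp6 and Etv4 the terms were 0.05 (SE 0.60) and 0.08 (SE 0.56).

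The profiles over the 7 arrays, each centred on its own mean, placed Dusp6 and Etv5 nearest to each other among these genes, with a root mean square difference of 0.23 log2 units. The pairs Etv4 with Etv5 and Etv4 with Dusp6 followed at 0.45 and 0.48, and Spry4 lay at least 1.61 from every other gene. Among all genes the nearest profiles were Spg21 (0.15) and Ggact (0.18) for Dusp6, Tmigd1 (0.12) and Wnt10a (0.14) for Etv4, and Nxt2 (0.17) and Ggact (0.19) for Etv5. Sox17, a transcription factor gene, and Ccm2l were nearest to Spry4, at 0.15 and 0.21. For the others they were Nkrf (0.06) and Zfp770 (0.08) for Nras, Nupr1 (0.25) and Grhl3 (0.37) for Dusp4, St14 (0.29) and Pih1d2 (0.31) for Dusp5, and Slc16a11 (0.26) and Atf3 (0.28) for Spry2. These distances describe 7 arrays that fall into 2 clusters by the tag.

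The rest of the pathway was read from 8 lists holding 80 genes, of which 73 were measured. Between the tumour types limma called 0 higher and 0 lower, and 0 had an unadjusted p under 0.05. Between the GFP arrays and the others 15 were higher, beside 11.9% of all genes, and 18 lower, beside 7.93%. The median difference was 0.06 log2 units against -0.05 for all genes. The same shares of all genes stand beside the tag counts of each list below. The lists were chosen with earlier results of these data known.

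Of 7 relatives of Ras, 3 were higher in the GFP arrays and 0 lower: Rras by 1.93 (SE 0.18), Rap1b by 0.98 (SE 0.17) and Mras by 0.96 (SE 0.16). Rras2 differed by -1.53 without passing (limma adjusted p = 0.0587). Of 9 measured adaptors and exchange factors 3 were higher and 0 lower, namely Rasgrp3, an exchange factor that loads Ras and Rap with GTP, by 6.47 (SE 0.20), and the scaffold adaptors Gab2, by 4.31 (SE 0.15), and Gab1, by 1.99 (SE 0.21). Rasgrp3 rose from a mean of 4.56 to 11.05 on arrays where the endothelial, fibroblast, pericyte and immune marker sums and the Gapdh 3' to 5' difference were also higher, and their part was not tested. The untagged levels of Rasgrp3, 4.39 to 4.94, and Gab2, 5.01 to 5.13, lay below the median of their arrays and are not shown to be above background. Of 8 GTPase activators, which switch Ras off, Rasal1 was higher by 1.12 (SE 0.24) and 0 were lower, a share of 12.5% higher beside 11.9% of all genes.

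The kinase chain itself gave 0 limma calls in 6 measured genes (1 had an unadjusted p under 0.05), with differences from -0.71 for the scaffold Ksr1 to 0.86 for Rps6ka3, a kinase that ERK activates. Map2k1 and Map2k2, the MEK kinases, differed by -0.02 (SE 0.30) and -0.32 (SE 0.22).

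The negative regulators were divided. Of 9 other dual specificity phosphatases 3 were lower in the GFP arrays, Dusp14 by -2.37 (SE 0.30), Dusp10 by -1.50 (SE 0.30) and Dusp7, a cytoplasmic ERK phosphatase like Dusp6, by -1.05 (SE 0.22), and 2 were higher, Dusp3 by 4.24 (SE 0.40) and Dusp2 by 2.40 (SE 0.29). Dusp1, an immediate early phosphatase, averaged 12.57 and 12.76 and did not pass. Of 9 Sprouty, Spred and receptor feedback genes 3 were higher and 0 lower: Il17rd, a membrane antagonist of FGF signalling, by 3.58 (SE 0.18), Spry1 by 1.84 (SE 0.20) and Spred1 by 1.14 (SE 0.20). Spry1 thus had the direction of Spry4 and not of Spry2, and the difference between them was not tested. The untagged levels of Il17rd, 4.62 to 5.02, lay below the median of their arrays and are not shown to be above background.

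Among ETS partners and output genes of the pathway, 7 of 13 measured genes were lower in the GFP arrays, beside 7.93% of all genes. Another 3 were higher, beside 11.9%, and the median was -1.06. The lower ones were Fosl1, an AP-1 subunit, by -2.51 (SE 0.43), Phlda1 by -2.40 (SE 0.22), Ier3 by -2.37 (SE 0.23), the ephrin receptors Epha2 and Epha4 by -2.16 (SE 0.48) and -1.07 (SE 0.22), Myc by -1.52 (SE 0.20) and the cyclin Ccnd1 by -1.06 (SE 0.26). All 3 higher ones were ETS factors, Ets1 by 2.85 (SE 0.74), Elk3 by 1.75 (SE 0.39) and Ets2 by 1.03 (SE 0.28). Of 12 immediate early genes, which ERK induces and which tissue dissociation also raises, 0 were higher, beside 11.9% of all genes. The median was -1.13, and 8 were lower, beside 7.93%. They were Btg2 by -2.60 (SE 0.34), Egr3 by -2.35 (SE 0.41), Fosb by -1.92 (SE 0.35), Nr4a1 by -1.74 (SE 0.30), Atf3 by -1.22 (SE 0.34), Jun by -1.20 (SE 0.22), Zfp36 by -1.06 (SE 0.23) and Junb by -0.64 (SE 0.17). Fos and Egr1, the best known of them, stayed bright, at 13.43 and 12.26 on average in the GFP arrays against 13.62 and 12.37, and did not pass.

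**Figure D4:**
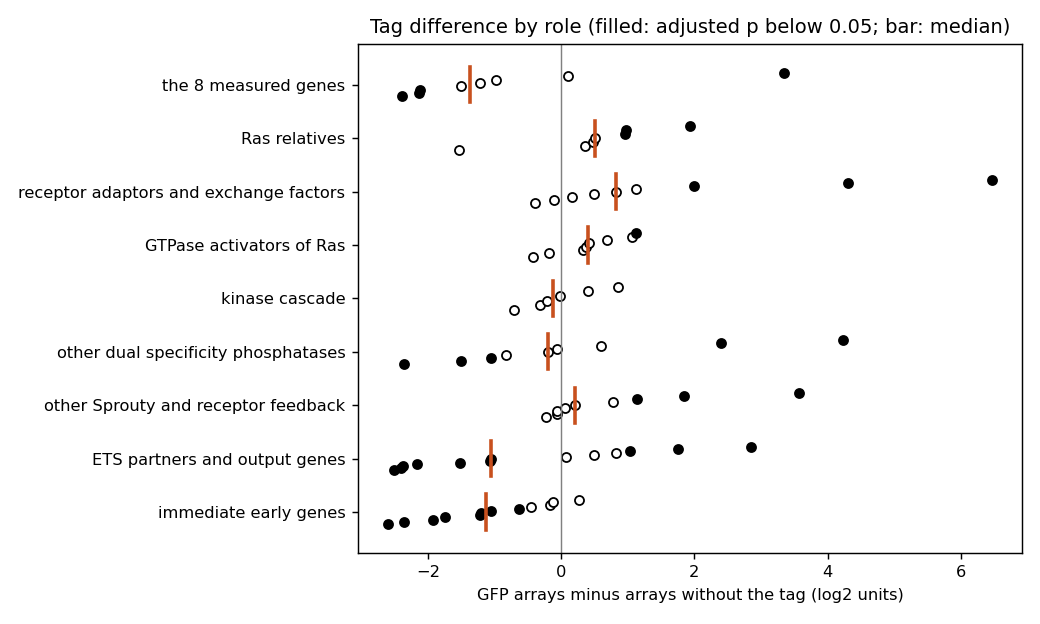
GFP arrays minus untagged arrays in log2 units for the 8 measured genes and the 73 measured genes of 8 pathway lists, 1 point per gene (filled where the adjusted p was below 0.05) with the list median as a vertical bar. The medians are -1.06 for the ETS partners and output genes, -1.13 for the immediate early genes and 0.82 for the adaptors and exchange factors.

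Between the tumour types the largest differences in these lists were -1.22 (SE 0.74) for Egr2, 0.95 (SE 0.86) for Epha2, 0.88 (SE 0.66) for Rras2 and 0.82 (SE 0.47) for the GTPase activator Rasa4, all with limma adjusted p = 1. Of the 13 ETS partners and output genes 11 had a higher carcinoma mean, with a median difference of 0.25, and 0 passed. Over all genes 46.9% had a higher carcinoma mean. Among the markers, with 0 calls, the carcinoma mean was higher for 9 of 9 epithelial and 8 of 9 basal keratinocyte markers and for 0 of 14 endothelial ones (median -0.57), and their part was not tested. Without the GFP arrays the counts were 11 of 13 ETS partners and output genes, beside 42.1% of all genes. Among the markers they were 9 of 9 epithelial, 6 of 9 basal keratinocyte and 2 of 14 endothelial ones (endothelial median -0.15).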

How the data were processed

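RNA of sorted tumour cells was measured on 7 arrays (4 carcinoma, 3 papilloma). Per the labels' protocols, the authors normalized the arrays with RMA, using affy per the submitters' processing notes. The deposited values are on a log2 scale, as read from their range, and no source used here gives versions, the chip definition or which arrays were normalized jointly. Probe sets were named by the platform annotation of 2016 for the standard array design, updated through RefSeq gene identifiers. Of 45101 probe sets, 34945 had 1 symbol after 64 control probe sets were set aside, and 932 had several and were not used. A gene was represented by its brightest probe set (18193 genes).

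Tumour type was fitted without covariates, the tag with tumour type as a covariate, and their interaction apart, by limma 3.58.1 (lmFit and eBayes, R 4.3.3), with Benjamini-Hochberg adjustment over all genes and a threshold of 0.05. Single genes were also tested by exact two-sided permutation over 35 splits (tumour type) or 21 splits (tag). Figures used matplotlib 3.10.9. The procedure was tested on simulated data, whose tumour type runs held no tag difference, unlike these arrays. Alternatives were the probe set choice, dim genes, scaling, array weights, an intensity trend, covariates, the replicate block and each array left out. Named were the genes of the list, the pathway genes past the threshold or with the largest differences, and the 2 nearest profiles, Xist aside. The genes and lists were chosen with earlier results of these data known.

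Both tumour types have arrays numbered 1 and 2 and an array with the tag. Their departures from the mean of their type correlated at 0.476, 0.194 and 0.861 for these pairs, across genes, but also at 0.683 for carcinoma 2 with papilloma 1, and the labels do not say that a shared number marks a shared animal or batch.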

Additional observations from a re-analysis of the deposited data

Results flagged for a closer look

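Carcinoma GFP stood apart from the other 3 carcinoma arrays on 3 probe sets, where its gap to the nearest array was a large share of the group's range. On Spry2 1421656_at it had 5.36, against 6.41 to 6.47 (share 0.944). On Spry4 1440867_at it had 7.02, against 5.12 to 5.44 (share 0.832). On Etv5 1450082_s_at it had 4.55, against 6.43 to 6.79 (share 0.84). The 17 probe sets were checked in 2 groups, 34 checks in all, and chance alone marks about 5% of such groups. Papilloma GFP lay on the same side on each of these probe sets, at 4.99, 6.87 and 4.38.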

How the results depend on the processing

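Between the tumour types 0 genes were called under every alternative run, and the signs of small differences turned. Without both GFP arrays Dusp5 was 0.33, Dusp6 -0.0055, Etv4 -0.16, Etv5 -0.17 and Spry4 0.12. Etv4 was -0.13 with the tag as a covariate and -0.031 with upper quartile centring, and Dusp5 was 0.20 with array weights. With the replicate block Etv4 was -0.15 and Spry2 -0.073, and the block changed no call. Leaving out 1 array gave Dusp5 -0.50 to 0.44, Dusp6 -0.60 to 0.80, Etv4 -0.68 to 0.59, Etv5 -0.60 to 0.72, Nras -0.16 to 0.34, Spry2 -0.073 to 0.88 and Spry4 -1.08 to 0.91. For the tag, Dusp6, Etv4, Etv5 and Spry4 kept direction under all alternatives. Their calls held under all but the fit within papilloma and, for Etv5, the fit within carcinoma. Nras turned to -0.37 with its probe sets averaged and -0.11 with array weights, and leaving out 1 array gave -0.11 to 0.29. The count of 3601 genes was 6819 with array weights, 5591 over probe sets, 1710 within carcinoma, 169 within papilloma (where 0 of the 8 genes passed) and 861 to 3955 with 1 array left out, the lowest without carcinoma GFP (1462 without papilloma GFP). A lone GFP array is then assumed to vary like the others. The interaction called 3 genes with an intensity trend. The causes were not tested. Dusp5 passed for the tag with array weights only, Dusp4 without papilloma 2 only, and Spry2 under 7 of 17 settings. Spry4 lay below the median gene and had no value among the brighter genes alone.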
